A study of Mus musculus with 8 samples.

Results

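Psca, Vsig1, Vsig2, Ctse, Capn8, Cldn18, Psapl1, Gsdma2, Sptssb and Vill are genes of the gastric surface and pit epithelium, and their RNA was followed in crypts and villi of the mouse small intestine with and without cyclooxygenases in Gli1+ mesenchymal cells. These 10 genes were chosen because both Gli1-PtgscKO crypt libraries gave higher values than both Ctrl crypt libraries, so their crypt difference is given below as a description without a test, while the villus values did not enter the choice. All 10 were among the 11554 genes of the crypt table and 5 were among the 12701 genes of the villus table. Gli1-PtgscKO mice carry floxed Ptgs1 and Ptgs2, which encode COX1 and COX2, and delete both through the tamoxifen-inducible Gli1-CreERT2, so the recombination was directed to Gli1+ mesenchymal stromal cells and not to the sequenced epithelium. Ctrl mice are labelled WT, and the sources differ on their alleles, naming either Gli1-CreERT2 with Rosa26-tdTomato or the floxed alleles without Cre. All mice were on a C57BL/6 background, their age was not given in the sources used here, and Cre induction preceded the phenotyping of these mice by 1 month. Each genotype had 2 crypt libraries and 2 villus libraries described as biological replicates, but the villus columns of Ctrl replicates 1 and 2 held identical values and were counted as 1 library.

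The surface of the stomach is lined by pit cells that secrete gel-forming mucin, gastrokines and trefoil peptides and are sealed by tight junctions that hold back acid. Pit cells share a program of surface glycoproteins, proteases and junction proteins that is normally low in the intestine. Gastric metaplasia is the appearance of such gastric-type cells outside the stomach, and it is known to occur in the injured duodenum.

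The 10 genes cover several roles. Psca, a GPI-anchored protein of the Ly6 family, and Vsig1 and Vsig2, immunoglobulin-domain proteins of the junctional adhesion type, sit at the cell surface. Cldn18 is a tight junction claudin with a lung isoform and a stomach isoform that start from different first exons. Ctse is the aspartic protease cathepsin E, Capn8 is a calcium-dependent cysteine protease that forms the gastric calpain with Capn9, and Gsdma2 belongs to the pore-forming gasdermins. Psapl1 resembles the saposin precursor Psap, Sptssb is a small activating subunit of serine palmitoyltransferase, the first enzyme of sphingolipid synthesis, and Vill is a relative of the actin-bundling protein villin.

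Windows of 250 bases before a RefSeq transcription start (GRCm38.p6) were at hand for 6 of the 10 genes, namely Capn8, Cldn18, Psapl1, Sptssb, Vill and Vsig1. The 2 Cldn18 windows are shown because the gene has 2 starts, and those of Psapl1 and Vill because they had the largest differences from Ctrl in Gli1-PtgscKO replicate 2. Capitals mark matches, on either strand, to the searched letters listed after the sequences.
Cldn18 downstream start, chr9:99710064-99710313, minus strand: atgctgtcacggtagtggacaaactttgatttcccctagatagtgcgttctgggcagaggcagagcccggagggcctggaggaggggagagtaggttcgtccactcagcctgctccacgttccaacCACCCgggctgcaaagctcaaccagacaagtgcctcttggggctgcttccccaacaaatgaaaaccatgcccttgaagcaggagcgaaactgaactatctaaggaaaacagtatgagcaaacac
Cldn18 upstream start, chr9:99717268-99717517, minus strand: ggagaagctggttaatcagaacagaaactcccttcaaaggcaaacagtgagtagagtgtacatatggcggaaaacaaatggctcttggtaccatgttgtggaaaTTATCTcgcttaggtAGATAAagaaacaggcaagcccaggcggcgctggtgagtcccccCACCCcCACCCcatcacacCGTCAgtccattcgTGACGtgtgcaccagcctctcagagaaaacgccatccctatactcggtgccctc
Psapl1, chr5:36203771-36204020, plus strand: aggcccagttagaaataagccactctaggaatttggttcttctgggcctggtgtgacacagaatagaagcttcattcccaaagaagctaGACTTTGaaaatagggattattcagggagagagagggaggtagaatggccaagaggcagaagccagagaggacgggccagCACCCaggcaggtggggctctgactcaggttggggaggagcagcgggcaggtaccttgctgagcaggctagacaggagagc
Vill, chr9:119052528-119052777, plus strand: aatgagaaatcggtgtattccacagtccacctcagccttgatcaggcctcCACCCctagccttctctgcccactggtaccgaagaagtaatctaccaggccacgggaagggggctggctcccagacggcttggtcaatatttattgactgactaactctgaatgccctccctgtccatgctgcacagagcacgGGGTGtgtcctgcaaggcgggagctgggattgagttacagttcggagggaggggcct

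The KLF letters CACCC occurred in the windows of 5 of the 6 genes, all except Sptssb, and in 52.01% of all 32851 windows. The GATA letters AGATAA and the CRE letters TGACG, the core of the site through which cyclic AMP acts on transcription, were found in 1 of the 6 genes, in the upstream Cldn18 window, against 9.988% and 17.77% of all windows. The HNF4 letters CAAAGTC was found in Psapl1 alone among the 6, against 3.842% of all windows. TATAAA, the FOX letters GTAAACA, the CDX letters TTTATGG and the SOX letters CTTTGTT were in none of the 6, and in 12.37%, 3.166%, 2.426% and 5.029% of all windows. No matches overlapped in the windows of these genes, and each match is a description of letters and not of a bound site. The tables count reads per gene, so the 2 Cldn18 starts cannot be told apart in the values below. Which of them gives the stomach isoform is not given in the sources used here, so no match is tied to that isoform.

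The libraries held 16853017 to 21121714 reads on listed genes in the crypts and 13477600 to 15751024 in the villi. The crypt label held against the stem cell marker Olfm4, at 61814 to 75262 normalized counts in the crypts (gene counts divided by a size factor of the library) and 1697 to 3056 in the villi. Gastric surface RNA was already present in Ctrl crypts, where the gastrokine gene Gkn1 stood at 5588 and 7915 normalized counts. Ptgs1 was at 365.5 and 163.8 in Ctrl crypts and at 178.4 and 198.9 in Gli1-PtgscKO crypts, and Ptgs2 and Gli1 were not listed, so the epithelial libraries gave no check of the mesenchymal deletion. Replicates of all genes differed by a median of 0.19 on the log2 scale between the Ctrl crypt libraries and 0.50 between the Gli1-PtgscKO crypt libraries. The difference from the Ctrl mean ran with transcript length in opposite ways in the latter, with a Spearman correlation across 11552 genes of -0.657 in Gli1-PtgscKO replicate 1 and 0.311 in replicate 2. Short genes therefore stood higher in replicate 1, and the crypt difference of each of the 10 genes is given below beside its value after a correction for length. Genes are not independent replicates, and these correlations describe the libraries.

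Summed over the 10 genes, Ctrl crypts had 3805 and 5179 normalized counts per library and Gli1-PtgscKO crypts had 14616 and 9364. Both Gli1-PtgscKO libraries lay above both Ctrl libraries for 10 of 10 genes, which the choice of the genes fixed, against 9.73% of all 11554 crypt genes. The median log2 difference of the 10 was 1.54, and 1.39 after the length correction, where the median of all genes was -0.01. Against the Ctrl mean, the median of the 10 was 1.92 in Gli1-PtgscKO replicate 1 and 1.15 in replicate 2. Replicate 1 exceeded replicate 2 for 9 of the 10 genes, all except Capn8, and in 50.86% of all genes. Ctrl replicate 2 exceeded Ctrl replicate 1 for all 10, and in 51.84% of all genes. In bulk RNA, more cells of a type and more RNA per cell cannot be told apart.

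**Figure D1:**
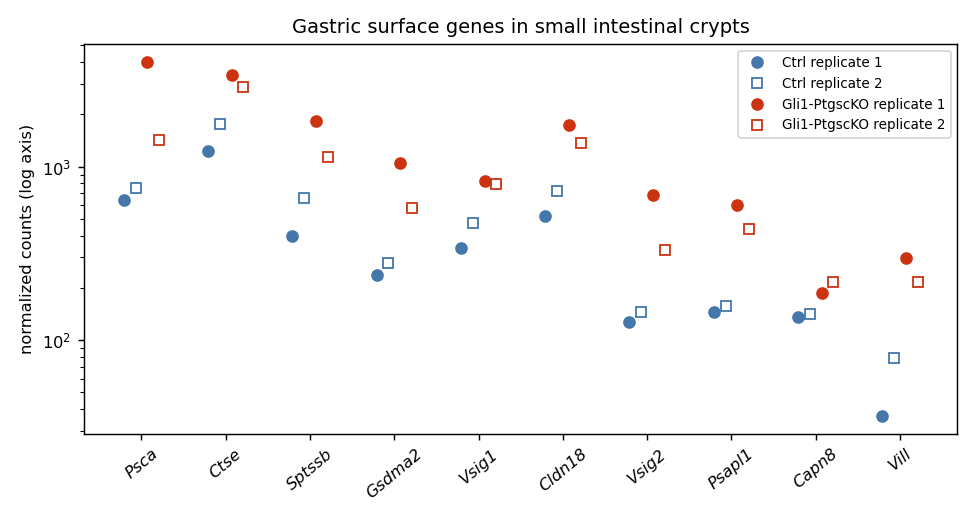
Normalized counts of the 10 genes (log axis) in the 4 crypt libraries, 1 point per library, with genes ordered by their level per kilobase in Ctrl crypts. Both Gli1-PtgscKO libraries lie above both Ctrl libraries for every gene, from the narrow gap of Capn8 to the wide gap of Vill.

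Among the cell surface genes, Psca (chr15:74714839-74717069, GRCm38, plus strand) was the most uneven between the Gli1-PtgscKO libraries. It was at 640.0 and 751.6 normalized counts in Ctrl crypts and at 4023 and 1429 in Gli1-PtgscKO crypts. The first Gli1-PtgscKO library was thus far above the second, although both exceeded Ctrl. The log2 difference was 1.79 (SE 0.47, n = 2 against 2) and 1.39 after the length correction. Psca has the shortest transcript of the 10, at 860 bases, and 377 genes of like length had a median difference from Ctrl of 0.99 in replicate 1 and -0.15 in replicate 2.

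Vsig2 (chr9:37539255-37544205, plus strand) was at 126.5 and 144.9 in Ctrl crypts and at 687.2 and 331.9 in Gli1-PtgscKO crypts. Both Gli1-PtgscKO libraries lay above both Ctrl libraries, the first further than the second, and its log2 difference was 1.81 (SE 0.42), or 1.51 after the length correction. Vsig1 (chrX:140907608-140939472, plus strand) was at 339.2 and 472.6 in Ctrl crypts and at 829.9 and 795.6 in Gli1-PtgscKO crypts. Its Gli1-PtgscKO libraries lay within 0.06 of each other on the log2 scale, and its difference was 1.02 (SE 0.29), or 0.97 after the length correction.

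Cldn18 (chr9:99689461-99717267, minus strand) was at 521.9 and 724.6 in Ctrl crypts and at 1729 and 1368 in Gli1-PtgscKO crypts. With 4172 bases it has the longest transcript of the 10, and genes of like length had a median of -0.14 in replicate 1. The length correction accordingly moved its log2 difference up, from 1.32 (SE 0.29) to 1.38.

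Among the proteases, Ctse (chr1:131638306-131675505, plus strand) was at 1227 and 1766 in Ctrl crypts and at 3365 and 2857 in Gli1-PtgscKO crypts. Its log2 difference was 1.07 (SE 0.28) and 0.97 after the length correction. Capn8 (chr1:182565007-182632352, plus strand) was at 135.9 and 142.2 in Ctrl crypts and at 185.7 and 216.8 in Gli1-PtgscKO crypts. It had the smallest log2 difference of the 10, 0.53 (SE 0.36), and lay nearest to the limit of the choice, with the lower Gli1-PtgscKO library at 1.31 times the higher Ctrl library. Just outside that limit, among the listed genes of the gastric surface, gland and parietal lists, were the potassium channel gene Kcnq1 and Bhlha15, a transcription factor of secretory cells, for which the same ratio was 0.834 and 0.769. Other genes of these lists lay inside the limit though they were not among the 10, with ratios from 1.07 for Aqp5 to 2.22 for Cblif.

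Gsdma2 (chr11:98646759-98657964, plus strand) was at 236.1 and 279.1 in Ctrl crypts and at 1051 and 573.3 in Gli1-PtgscKO crypts. Its profile over the 4 libraries came closest to the median profile of the 10, at a root mean square distance of 0.069 on the log2 scale, and Capn8 was the farthest at 0.80. The log2 difference of Gsdma2 was 1.59 (SE 0.36), or 1.41 after the length correction. Gsdma2 has the close copies Gsdma and Gsdma3, which were not listed in crypts, and how reads shared between copies were counted is not given in the sources used here.

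Of the genes tied to lipids, Psapl1 (chr5:36204021-36206568, plus strand) was at 144.3 and 157.5 in Ctrl crypts and at 603.3 and 438.0 in Gli1-PtgscKO crypts. Its log2 difference of 1.76 (SE 0.33) hardly moved with the length correction, to 1.70. Sptssb (chr3:69819542-69859940, minus strand) was at 398.2 and 660.7 in Ctrl crypts and at 1842 and 1138 in Gli1-PtgscKO crypts. Its log2 difference was 1.495 (SE 0.37), or 1.33 after the length correction.

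Vill (chr9:119052778-119071525, plus strand) was the least abundant per kilobase, at 36.55 and 79.22 normalized counts in Ctrl crypts, from 39 and 88 reads, and at 299.0 and 216.8 in Gli1-PtgscKO crypts. It had the largest log2 difference of the 10, 2.22 (SE 0.51), and 2.26 after the length correction. The Ctrl libraries of Vill also lay furthest apart, by 1.10 on the log2 scale, and the fold between group means was 4.46.

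**Figure D2:**
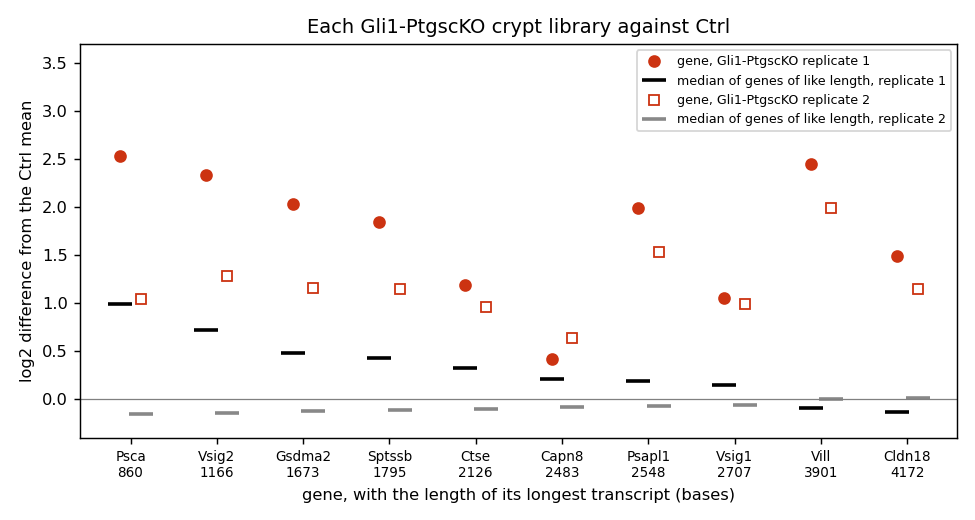
Log2 difference of each Gli1-PtgscKO crypt library from the Ctrl mean for the 10 genes (points), ordered by the length of the longest transcript, with the median of genes of like length in the same library (bars). The bars fall from 0.99 to -0.14 with length in replicate 1 and stay between -0.15 and 0.02 in replicate 2, and every point lies above its own bar.

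Levels per kilobase of the longest transcript, in CPM (reads scaled to a common library total over the 11227 genes listed in both tables) per kilobase, put Psca first in Ctrl crypts with a mean of 43.3, followed by Ctse at 37.6 and Sptssb at 15.8. Psca and Ctse did not differ beyond their spread in Ctrl, with ranges of 40.6 to 46.0 and 31.5 to 43.8. Gsdma2, Vsig1 and Cldn18 followed at 8.25, 8.02 and 7.99, each overlapping its neighbour. Vsig2 was at 6.24, Psapl1 at 3.17, Capn8 at 3.002 and Vill at 0.79. In Gli1-PtgscKO crypts Psca led at 158.5 and Ctse was at 74.4, and their ranges no longer overlapped. Vill and Capn8, at 3.35 and 4.15, overlapped there.

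Genes outside all lists whose 4-library crypt profile was among those most like the median profile of the 10 were S100a14, Slc45a3, Clec3b and Tomm40l, at root mean square distances of 0.142, 0.146, 0.157 and 0.177. S100a14, an S100 calcium-binding protein, was at 61.85 and 97.22 in Ctrl crypts and at 309.5 and 152.0 in Gli1-PtgscKO crypts. Clec3b, which encodes the plasminogen-binding protein tetranectin, was at 25.30 and 27.91 in Ctrl crypts and at 117.5 and 69.28 in Gli1-PtgscKO crypts. These profiles were compared over 4 libraries and describe likeness in values only.

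Other gastric surface genes that the choice did not include were read from a list of 10, of which 7 were listed in crypts. Both Gli1-PtgscKO libraries lay above both Ctrl libraries for 7 of the 7, against the 9.73% of all genes, and their median log2 difference was 0.94. The list was drawn up with earlier results of these same libraries known, so this count is a description and not an independent test. A gene was called when its unadjusted limma p was below 0.01 and its log2 difference exceeded 1 in size, which 0.173% of crypt genes did in the higher direction and 0.00866% in the lower one. By that rule 1 of the 7 was higher, Mucl3, a mucin-like membrane protein, at 1671 and 2517 in Ctrl crypts and 4312 and 4446 in Gli1-PtgscKO crypts. Its log2 difference was 1.09 (SE 0.28, limma adjusted p = 0.9996). The call was lost without Ctrl replicate 1, where the log2 difference was 0.80, and without Ctrl replicate 2, where it was 1.39 with a larger p. No crypt gene passed an adjusted p of 0.05 in limma or edgeR, where 73 (0.632%) and 108 genes had an unadjusted p below 0.05, and 11 genes passed it in DESeq2.

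The 6 others did not pass. Foxq1, a forkhead factor needed for mucin production in pit cells, differed by 0.94 (SE 0.30), the membrane mucin Muc1 by 0.93 (SE 0.35) and the fucosyltransferase Fut2 by 0.97 (SE 0.43). Sox21 differed by 0.99 (SE 0.53), the sulfotransferase Sult1c2 by 0.91 (SE 0.43) and Capn9 by 0.55 (SE 0.35). After the length correction Foxq1 also passed, at 1.05, and the list then had 2 calls with Mucl3 at 1.03. In that setting 21 of all 11552 crypt genes were called higher. Without Gli1-PtgscKO replicate 2, which left 1 library in that group, the differences in this list ranged from 0.95 (Capn9) to 1.53 (Sox21). Sox21 and Sult1c2 stood higher in Gli1-PtgscKO replicate 1 than in replicate 2, at 237.1 against 111.7 and 630.5 against 309.5 normalized counts, while Fut2 stood at 230.8 against 209.0. Tff1 and Slc26a9 were not listed, and the remaining entry of the list, Dpcr1, is an older symbol of Mucl3. For comparison, the 7 gastric genes named in the study's crypt result had a median of 1.67 on the same scale. They were likewise chosen on these libraries.

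**Figure D3:**
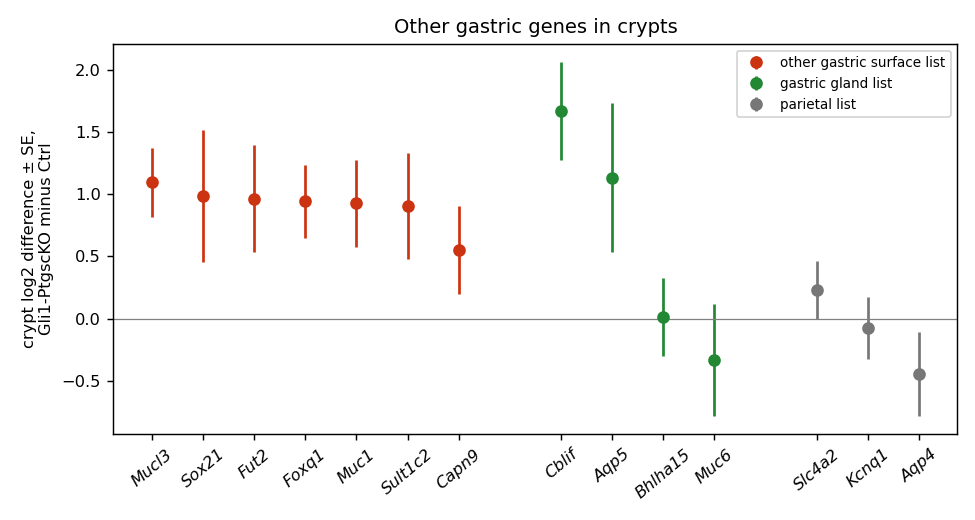
Crypt log2 difference, Gli1-PtgscKO minus Ctrl, with its standard error (n = 2 against 2) for listed genes of the gastric surface list beyond the 10 chosen genes, the gastric gland list and the parietal list. The surface genes lie between 0.55 and 1.09, and the gland genes between -0.33 and 1.67.

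Markers of other cell types were read from the same libraries. In a list of 8 symbols of gland, neck and chief cell genes 4 were listed, and the unlisted Gif is an older symbol of Cblif. In crypts 1 was called higher, Cblif, the gastric intrinsic factor. It was at 149.0 and 89.12 in Ctrl and 330.5 and 412.3 in Gli1-PtgscKO crypts (log2 difference 1.67, SE 0.39, limma adjusted p = 0.9996). The call was lost without Ctrl replicate 2, at 1.30, and after the length correction, at 1.46, where p no longer passed. Both Gli1-PtgscKO libraries lay above both Ctrl libraries for 2 of the 4, Cblif and Aqp5, against 9.73% of all genes. Aqp5 did not pass, at 88.08 and 58.51 in Ctrl and 267.5 and 93.87 in Gli1-PtgscKO crypts (log2 difference 1.13, SE 0.60). The neck cell mucin Muc6 did not pass, at 1562 and 835.4 in Ctrl and 625.3 and 1317 in Gli1-PtgscKO crypts. The acid pump genes Atp4a and Atp4b, which define parietal cells, were not listed in either table. Summed over the listed genes of each list, gland genes ranged from 1534 to 2178 normalized counts in Ctrl and from 1725 to 2247 in Gli1-PtgscKO crypts. Muc6 was the largest part of that sum in every crypt library. Pancreatic enzyme genes, with 3 of 11 listed, ranged from 294.4 to 533.2 in Ctrl and from 776.6 to 1151 in Gli1-PtgscKO crypts, and the part of such material in the result was not tested. The separation of these sums came mainly from the elastase gene Cela1, at 344.8 and 206.1 in Ctrl and 970.5 and 510.7 in Gli1-PtgscKO crypts. Ctrb1 also had both Gli1-PtgscKO libraries above both Ctrl libraries, at 93.37 and 139.7 against 85.27 and 46.81. The lipase gene Pnlip overlapped between the groups, at 103.1 and 41.41 in Ctrl against 87.08 and 126.3. Goblet genes summed to 84987 and 101755 in Ctrl and 106490 and 90230 in Gli1-PtgscKO crypts, stem cell genes to 102272 and 102404 against 101973 and 91874, and mesenchymal genes to 15904 and 8701 against 10011 and 13995. Fcgbp was the largest part of the goblet sum in every crypt library. The goblet list did not hold Muc2, which the paper reports as decreased in the mutant crypts. Of 58 listed genes in the lists for other cell types and regions, limma and edgeR called 1 in crypts. In limma 0.173% of all crypt genes were called higher. The called gene was the calcium-binding S100g, higher by 1.00, and its difference was 0.42, with no call, after the length correction. Its call was also lost with library size scaling (0.93), without Ctrl replicate 1 (0.90) or 2 (1.11, with a larger p) and without Gli1-PtgscKO replicate 2 (0.93). DESeq2 called 4 of the 58 higher, S100g, Cela1, the lysozyme gene Lyz2 and the goblet cell gene Spink4, and 60 of all 11554 crypt genes. Spink4 was at 3968 and 2986 in Ctrl and 13874 and 3234 in Gli1-PtgscKO crypts, so Gli1-PtgscKO replicate 2 lay between the Ctrl libraries. Its log2 difference was 0.96 in limma, and 0.32 after the length correction.

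The closest relatives and partners of the 10 genes were centred near 0 in the same crypt libraries. Of 90 such genes 63 were listed, and limma and edgeR called 0 in either direction while DESeq2 called 1 higher. Limma called 0.173% of all crypt genes higher. Capg and Ly6d had an unadjusted p below 0.05 in limma and in edgeR, as 0.632% of all crypt genes had in limma. Both Gli1-PtgscKO libraries lay above both Ctrl libraries for 12 of the 63, against 9.73% of all genes. The median log2 difference of the 63 was 0.05. The 10 genes were chosen for high values in these same libraries and their relatives were not, so the choice favoured a gap between them. The values of relatives below are without the length correction, which moved Ly6d to 1.26 and Capg to 0.82.

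Beside Psapl1, the saposin precursor Psap stood at 13386 and 12289 normalized counts in Ctrl and 13840 and 10995 in Gli1-PtgscKO crypts, a log2 difference of -0.06. Beside Sptssb, the alternative small subunit Sptssa stood at 4262 and 4059 in Ctrl and 5719 and 3663 in Gli1-PtgscKO crypts, a difference of 0.14. Beside Vill, the brush border villin gene Vil1 differed by 0.07. The groups overlapped for all 3 of these relatives. The sign of each turned in some alternative, Vil1 with library size scaling, Sptssa with the length correction and Psap without Ctrl replicate 1.

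Beside Ctse, the lysosomal protease Ctsd differed by 0.37, and beside the Vsig genes Vsig10 differed by 0.15. Of 8 listed claudins other than Cldn18 and of 5 listed gasdermins none was called by any of the 3 tools, and none had an unadjusted p below 0.05. In the Ly6 family, Ly6e differed by -0.50 and Ly6d by 1.70 (SE 0.64, limma adjusted p = 0.9996), the latter from 20.62 and 25.21 in Ctrl to 97.57 and 59.23 in Gli1-PtgscKO crypts. Capg, the gelsolin-like capping protein, differed by 1.06 (SE 0.37, limma adjusted p = 0.9996), and DESeq2 called it. Differences between a gene and its relatives were not tested.

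**Figure D4:**
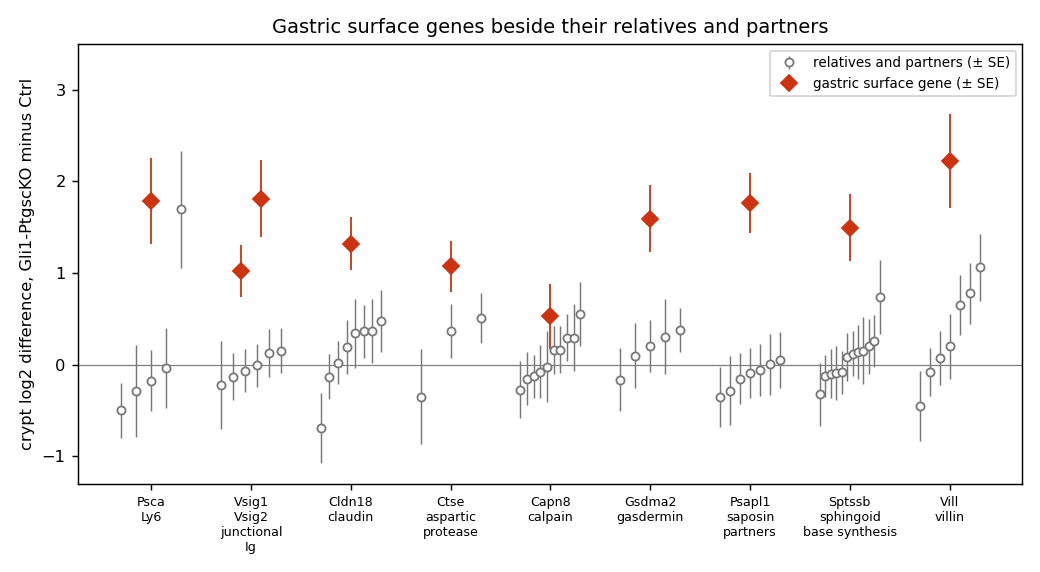
Crypt log2 difference, Gli1-PtgscKO minus Ctrl, with its standard error (n = 2 against 2) for the 10 genes (diamonds) and for the listed members of their families or pathways (circles). Circles have a median of 0.05, and apart from Ly6d and Capg none reaches the level of the diamonds other than that of Capn8. The 10 genes were chosen on these libraries, which favoured a gap to the circles.

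In villi the genes were near the lower end of the table, and only 5 of the 10 were listed. Ctse was at 23.17 normalized counts in the Ctrl library and at 26.76 and 59.88 in the Gli1-PtgscKO libraries, from 20, 35 and 62 reads. Capn8 was at 32.43 in Ctrl and at 51.23 and 59.88 in Gli1-PtgscKO villi, and Sptssb was at 11.58 in Ctrl and at 22.17 and 33.81. For these genes both Gli1-PtgscKO libraries lay above Ctrl, as in 43.7% of all villus genes. Vsig2 was at 13.90 in Ctrl and at 7.65 and 12.56 in Gli1-PtgscKO villi, from 12, 10 and 13 reads, and both lay below Ctrl, as in 44.2% of all villus genes. Vill was at 15.06 in Ctrl and at 8.41 and 24.15 in Gli1-PtgscKO villi, with Ctrl between the other values.

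The villus fit rested on 1 Ctrl library, which was assumed to vary like the Gli1-PtgscKO libraries, so it compares these libraries more than the genotypes. In it, 0 of the 5 genes were called in limma and in edgeR, and 0 had an unadjusted p below 0.05, as 47.3% of villus genes had, where 9.82% of villus genes were called higher and 6.69% lower. The log2 differences were 1.17 for Sptssb (SE 0.50, adjusted p = 0.11), 0.75 for Capn8 (SE 0.32, adjusted p = 0.11) and 0.77 for Ctse (SE 0.54, adjusted p = 0.30). Those of Vsig2 and Vill were -0.46 (SE 0.66, adjusted p = 0.61) and -0.06 (SE 0.74, adjusted p = 0.96). Scaling by library size alone moved the median of all villus genes to 0.42, where it had been -0.01, and the differences to 1.58 for Sptssb, 1.18 for Capn8 and 1.18 for Ctse. On that scaling Sptssb and Capn8 were called, while 2825 genes were called higher and 159 lower. Vill turned to 0.34 with library size scaling. With the length correction the differences were 1.59 for Sptssb, 1.08 for Ctse, 0.97 for Capn8 and -0.20 for Vill, and Vsig2 turned to 0.18. The Spearman correlation of the villus difference with length was 0.543 and 0.507 in the Gli1-PtgscKO libraries.

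Across tissues, which were normalized separately and are set side by side only as CPM on the shared genes, the 5 genes stood higher in crypts. Ctse had 67.0 and 93.0 CPM in Ctrl crypts and 1.38 CPM in Ctrl villi, a ratio of 58.1, and Sptssb had a ratio of 41.1. The ratio was 8.81 for Vsig2, 3.87 for Capn8 and 3.45 for Vill. Between Gli1-PtgscKO crypts and villi the ratios were 46.2 for Ctse, 33.8 for Sptssb, 31.9 for Vsig2, 10.2 for Vill and 2.32 for Capn8. The genes were chosen for high Gli1-PtgscKO crypt values, which favoured high ratios there, and the villus values rest on few reads. Capn9, by contrast, stood at 17.1 and 17.4 CPM in Ctrl crypts and at 14.5 CPM in Ctrl villi. The stem cell gene Olfm4, at 4034 and 3673 CPM in Ctrl crypts and 100.8 CPM in Ctrl villi, was also low but present in villi, and the part of crypt material in the villus values was not tested.

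**Figure D5:**
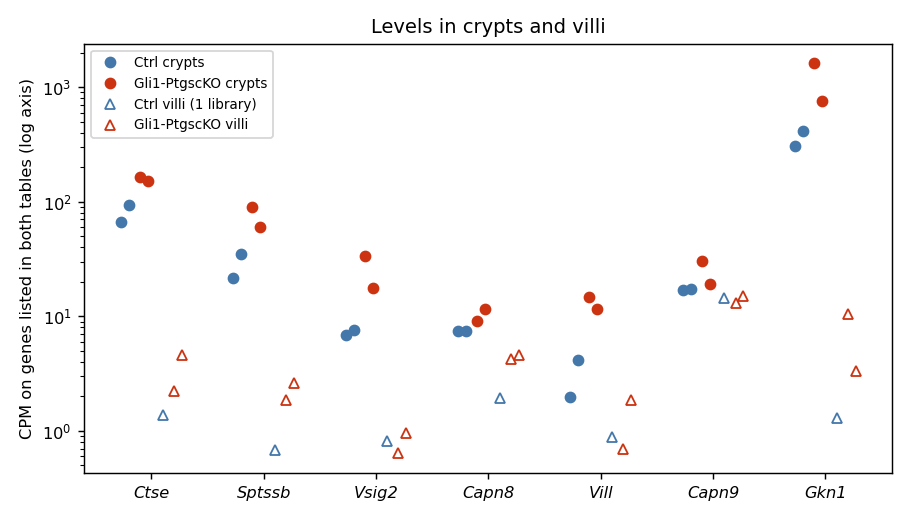
CPM on genes listed in both tables (log axis) for the 5 genes found in both tissues and, for comparison, Capn9 and Gkn1, with 1 point per library. Crypt points lie above villus points for the 5 genes, and Ctrl villi have 1 library.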

How the data were processed

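RNA of small intestinal crypts and villi was sequenced in 2 replicates per genotype and tissue. Per the labels and the study's methods, reads were aligned to mm10 with STAR and analysed with DESeq2. The deposited values are a signal that the authors obtained by dividing each gene's count by the DESeq2 size factor of its library. The counting program, strand setting and annotation are not given in the sources used here, so overlapping and antisense genes are uncertain. The authors' fold change and p-value columns were not used.

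The smallest steps between values gave the worth of 1 read in each library, and dividing by it made 100% of values whole to within 0.01 reads. The count test set out for count data was replaced by the trended fit of limma 3.58.1 in R 4.3.3, on log2(value + 1), over all genes of a table with a mean value of at least 1, in the 4 crypt libraries and in 3 villus libraries. Fold changes are on the log2(value + 1) scale. Adjusted p-values are Benjamini-Hochberg values over all genes of a table. Genes with p below 0.01 and a log2 difference over 1 in size were called, after the study's threshold. The smallest mean value over the libraries was 48.42 in the crypt table, so less abundant genes are not analysed here. All 10 genes exceeded it in the Ctrl mean as well. The length correction subtracted a lowess curve (span 0.3) on the log2 length of the longest transcript (GENCODE M21, GRCm38), which matched 11552 crypt and 12698 villus genes by identifier. Alternatives were edgeR 4.0.16 and DESeq2 1.42.0 on recovered reads, a replicate block, library size scaling, a minimum of 10 counts per library or none at all, a pseudocount of 0.1 and the removal of 1 library at a time. The tests were tried on simulated data. The animals behind each library are not named, so p-values measure the spread between these samples, which may be technical. Figures were drawn with matplotlib 3.10.9.

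The genes, lists and tests were chosen with earlier results of these data known. Genes named are the 10, the other gastric surface list, list genes that were called, close relatives, markers of other cells, Ptgs1, Ptgs2 and Gli1, and the 5 genes with the most similar crypt profile, of which 1 is not reported here. Proteins are not shown, and promoter windows are shown for part of the genes.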

Additional observations from a re-analysis of the deposited data

Results flagged for a closer look

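Some genes of the lists had both Gli1-PtgscKO libraries above both Ctrl libraries in crypts and both below the Ctrl library in villi. The difference between the tissues was not tested, since the tables were normalized separately and Ctrl villi have 1 library. Among the 10 gastric surface genes this was Vsig2, with a villus log2 difference of -0.46 from at most 13 reads per library. Among relatives, partners and other gastric surface genes it was Capn9 at -0.47, Ly6d at -0.71, Capg at -1.303, Gsn at -1.14, Gsdmd at -0.998, Cldn3 at -1.10, Cldn23 at -0.31, Capn5 at -0.56, Capn13 at -0.36, Bace2 at -0.33 and Ormdl2 at -0.39 in villi. Among markers of other cell types and regions it was Slc4a2 at -0.47, Cela1 at -1.02, Pdx1 at -0.29, Fabp1 at -0.49 and Lyz2 at -1.04. The opposite held for Capn7 at 1.39 and Sptlc2 at 0.33, below Ctrl in crypts and above it in villi. In villi 44.2% of all genes had both Gli1-PtgscKO libraries below Ctrl. With 2 libraries per group, no group was large enough to test a single library as an outlier.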

How the results depend on the processing

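The median crypt difference of the 10 genes, 1.54, and each gene's own difference stayed above 0 under all alternatives run. The choice of the genes fixed that direction for the removal of 1 library, the replicate block, the filters and the pseudocount. It favoured the same direction under the other alternatives, so this is no test. Over all crypt genes, 20 were called higher and 1 lower. With the replicate block 63 were higher and 15 lower, and 34 passed an adjusted p of 0.05. The shared numbers do not establish a pairing, since same-numbered deviations correlated at 0.247 over only 2 pairs. DESeq2 called 60 higher and 5 lower, edgeR 3 lower, library size scaling 4 lower, the length correction 4 lower, and the length correction with the replicate block, chosen after seeing the data, 5 lower. Leaving out 1 library gave 15 to 593 higher and 3 to 288 lower, the highest numbers without Gli1-PtgscKO replicate 2, where the lone replicate 1 remained. In villi 1247 were called higher and 850 lower, against 2825 and 159 with library size scaling and 703 and 383 with the length correction. The villus median of the 5 genes was 0.75, against 0.97 with the length correction and 1.18 with library size scaling. It was 0.20 to 0.87 without 1 Gli1-PtgscKO library, the lower value without replicate 2. The cause was not tested.

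Signs turned for small differences. In crypts, Vil1 was -0.005 with library size scaling, Sptssa -0.119 with the length correction and also with the replicate block beside it. Without 1 library, Vil1 ranged from -0.128 (without Ctrl replicate 1) to 0.264 and was -0.006 without Gli1-PtgscKO replicate 2, Psap from -0.222 to 0.110 and was 0.005 without Ctrl replicate 1, Vsig10 from -0.002 to 0.303, Sptssa from -0.183 to 0.459 and Muc6 from -0.868 to 0.206, with 0.120 without Ctrl replicate 1. In villi, Vill was 0.095 with edgeR, 0.339 with library size scaling, and -0.771 to 0.647 without 1 Gli1-PtgscKO library. With the length correction Vsig2 was 0.176, Foxq1 -0.027 and Ly6d 0.181, and Sptssa was -0.092 to 0.187 without 1 Gli1-PtgscKO library. S100g was 0.129 with library size scaling, 0.949 with the length correction and -1.090 to 0.482 without 1 Gli1-PtgscKO library. No DESeq2 or block fit was run in villi. With 10 to 67 reads per library for the 5 genes, villus differences of this size are limited by depth.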

Other observations

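The lists of other gastric and intestinal genes also gave values in villi. Gkn1 was at 22.01 normalized counts in the Ctrl villus library and at 124.6 and 43.46 in the Gli1-PtgscKO villi, and Fut2 at 6.95 against 21.41 and 33.81, a log2 difference of 1.81 (limma adjusted p = 0.046). The Fut2 difference did not pass the call rule, with an unadjusted p of 0.015 and 6 reads in Ctrl. Aqp4 was called higher in villi, at 32.43 in Ctrl and 87.16 and 77.27 in Gli1-PtgscKO villi (1.31, limma adjusted p = 0.018), while it stood at 1460 and 1646 in Ctrl and 836.2 and 1551 in Gli1-PtgscKO crypts. Krt14, the only listed gene of 6 forestomach squamous markers, was at 101.2 and 18.00 in Ctrl and 229.8 and 41.35 in Gli1-PtgscKO crypts, so the first library of each group was the higher one.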
